A study of Homo sapiens with 54 samples.

Results

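The replication-dependent histone genes were followed in 9 established human lines, first without calcitriol (the active vitamin D hormone) and then after 8 and 36 hr with it. Members were all probe sets of an Affymetrix Gene 1.0 ST array whose only gene symbol was H1-1 to H1-6 or began with H2AC, H2BC, H3C or H4C and a number. This gave 58 probe sets of 58 genes, among 19460 probe sets with 1 symbol and 33297 in the deposited table. They were 6 linker histone H1 genes and, of the core histones, 14 H2A, 17 H2B, 8 H3 and 13 H4 genes. H2BC19P was the 1 pseudogene. The probe sets of H4C14 and H4C15 held the same values on every array, so the 58 rows were 57 separate measurements.

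Each line had 2 arrays at 0 hr without calcitriol and 2 at each of 8 and 36 hr with calcitriol, 54 arrays in 27 groups. GM07019, GM07348, GM10854 and GM12878 were lymphoblastoid lines, B cells immortalised with Epstein-Barr virus. Ag09309 and Ag09319 were fibroblasts, HL60 is a promyelocytic leukaemia line, K562 a chronic myeloid leukaemia line with erythroid features, and HEP-G2 a liver tumour line. No dose of calcitriol is given in the labels. The sample titles have 2 styles: those of HEP-G2, Ag09319 and GM12878 carry a date, and those of the other 6 lines do not. What the styles stand for is not stated. Untreated cultures kept for 8 or 36 hr were not analysed here, so the hormone and time in culture cannot be told apart. The titles mark the 2 arrays of a group BR1 and BR2 without spelling out the letters. Whether they came from separate cultures is not stated further, so within a line the tests measure the spread between arrays.

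Chromosomes are packed on nucleosomes, each a spool of H2A, H2B, H3 and H4, with H1 binding the linker DNA. The replication-dependent genes supply these proteins while DNA is copied in S phase, and their mRNAs characteristically end in a stem-loop bound by SLBP in place of a poly(A) tail. NPAT, a substrate of cyclin E and CDK2, switches the genes on in nuclear histone locus bodies. Replication-independent histones, such as H3-3B and H2AZ1, are made from polyadenylated mRNA outside S phase as well. Some replication-dependent genes, H2BC12 and H2AC6 among them, are known to yield polyadenylated transcripts too. The labels do not state whether labelling of the RNA relied on the poly(A) tail.

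In the RefSeq annotation of GRCh38.p14, 49 of the 58 genes lie on chromosome 6, between positions 25726063 and 27893891. On chromosome 1 there are 6 between 149832657 and 149887965 and 2 between 228457364 and 228458558, and H4C16 lies on chromosome 12. Of the members, 5 have an annotated gene longer than 1000 bases (H2BC4, H2BC5, H2BC12, H2BC21 and H4C15). The positions are RefSeq's, since the labels name no build for the array.

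The 200 bases before the RefSeq start are shown for 4 members on which the results turn. H3C2 had the deepest fall of all, H1-5 fell in 3 lines, H2BC14 fell in the same 3 lines while its level in HL60 and K562 was low throughout, and H2BC12 rose in HEP-G2 where others fell. All 4 were chosen after their values were seen. Capitals mark 4 motifs on either strand. They are the CCAAT box (which reads ATTGG on the other strand), the TATA box with the letters TATAAA, the octamer of H2B promoters with the letters ATTTGCAT, and the H1 box with the letters AAACACA. All 4 are from GRCh38.p14 and run 5′ to 3′ towards the gene. H3C2 is at chr6:26032100-26032299 on the minus strand, H1-5 at chr6:27867589-27867788 (minus), H2BC14 at chr6:27814822-27815021 (plus) and H2BC12, by the first of its 2 entries, at chr6:27146859-27147058 (minus).
H3C2: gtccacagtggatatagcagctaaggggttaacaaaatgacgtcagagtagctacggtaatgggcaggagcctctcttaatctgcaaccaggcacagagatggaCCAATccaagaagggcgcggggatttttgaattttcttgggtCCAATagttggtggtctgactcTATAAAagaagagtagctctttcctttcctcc
H1-5: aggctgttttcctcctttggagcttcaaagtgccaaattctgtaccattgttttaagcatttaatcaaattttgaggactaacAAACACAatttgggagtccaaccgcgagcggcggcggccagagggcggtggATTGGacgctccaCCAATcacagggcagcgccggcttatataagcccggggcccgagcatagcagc
H2BC14: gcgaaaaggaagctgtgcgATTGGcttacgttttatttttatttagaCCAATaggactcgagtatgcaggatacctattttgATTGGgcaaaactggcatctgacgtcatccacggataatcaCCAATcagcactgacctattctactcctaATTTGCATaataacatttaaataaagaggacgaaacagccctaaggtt
H2BC12: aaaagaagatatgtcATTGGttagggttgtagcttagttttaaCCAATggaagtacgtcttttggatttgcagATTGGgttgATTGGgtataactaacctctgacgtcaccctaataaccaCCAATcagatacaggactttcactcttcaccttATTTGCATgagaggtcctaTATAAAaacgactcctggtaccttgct

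H2BC14 and H2BC12 both carry CCAAT copies and an octamer, and their levels went in different directions in HEP-G2. In H3C2 TATAAA begins at position -32 from the start and in H2BC12 at -27. The table held promoters of 52 members. CCAAT was in the window of 44 of them (84.6%), against 28.0% of all 35116 promoters. It was in all 6 H1, 13 H2A, 16 H2B and 6 H3 windows and in 3 of 11 H4 windows. The octamer was in 13 of 16 H2B windows and 6 of 13 H2A windows (1.31% of all promoters), and in 0 of the others. AAACACA was in all 6 H1 windows and in 0 of the other members' windows (3.76% of all promoters), and TATAAA in 29 of the 52 (8.59% of all). A match is a string of letters and no measured binding site.

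The median log2 value of an array lay between 4.98 and 5.31. Of the 58 members 16 lay above the array's own median on all 54 arrays and 5 on none. One array each of Ag09319 at 8 hr, HEP-G2 at 0 hr and K562 at 36 hr stood apart within its line, and results in these lines are given with and without them where the count moves. The means of the marker lists at 0 hr were highest in the lines they mark. Of the single erythroid markers EPOR read 5.06 in K562, close to the array medians, and TFRC was highest in HL60 (10.36). In the fibroblast line Ag09309 at 0 hr the mean of the 4 measured B cell markers was 6.16 and 6.23 on its 2 arrays, against 4.27 and 4.47 at 8 hr and 4.05 and 4.21 at 36 hr. In Ag09319 that mean lay between 4.21 and 5.07 on all 6 arrays. MS4A1, the B cell antigen CD20, read 8.15 and 8.07 at 0 hr in Ag09309 and 2.85 to 3.38 on its 4 later arrays.

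Levels at 0 hr were compared first, since they are the base of every later change. A level is the RMA log2 value, set only against the same probe set in other lines. Of the 58 members, 8 were higher in the 4 lymphoblastoid lines than in the 5 others and 0 were lower, with the line as the replicate (limma, Benjamini-Hochberg adjusted p under 0.05). In that direction 2.22% of all probe sets passed (3% in both directions together). H3C8, an H3 gene, read from 6.47 to 6.98 (median 6.81) on the 8 lymphoblastoid arrays and from 3.77 to 5.85 (median 4.67) on the 10 others. The groups do not overlap, and the difference was 1.91 ± 0.30 (SE here and below; adjusted p = 0.00858). H3C7 followed with 1.75 ± 0.33, again without overlap.

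The other 6 were the core histone genes H4C16 (1.22 ± 0.19), H2BC9 (1.34 ± 0.27), H2BC10 (1.05 ± 0.22), H2AC14 (1.17 ± 0.27) and H3C3 (0.97 ± 0.21) and the linker histone gene H1-3 (1.32 ± 0.30). The arrays of H1-3, H2AC14 and H2BC10 overlapped between the groups. Over the 58 members the median difference was 0.52 against 0.01 over all probe sets. None of the 8 calls held in every alternative run. The count was 2 without GM07019, GM07348 or GM12878, 3 without GM10854 or Ag09309, and 4 without HL60. It was 3 with arrays centred on their medians.

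H3C11, H2BC14 and H2BC12 differed most between lines. H3C11 read 10.56 to 10.76 on the lymphoblastoid arrays, 10.33 and 10.21 in HL60, 10.45 and 10.30 in Ag09319 and 9.10 and 8.88 in Ag09309, but 4.82 and 4.73 in HEP-G2 and 4.18 and 4.52 in K562. The last pair of lines lay below the array medians and the other 7 far above them. H2BC14 was low in other lines, with 5.54 and 4.76 in HL60 and 4.77 and 5.42 in K562, against 9.05 to 11.25 elsewhere.

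H2BC12 was highest in K562 (10.55 and 10.17) and lowest in HEP-G2 (3.94 and 3.07), a range of 6.85 between line means. The lymphoblastoid lines lay between 8.73 and 10.18, Ag09309 at 8.98 and 8.74, Ag09319 at 7.28 and 6.82 and HL60 at 5.27 and 5.67. The arrays of K562 and Ag09309 overlapped or adjoined those of the lymphoblastoid lines, and Ag09319, HL60 and HEP-G2 each lay apart below them. H3C8 and H3C7 complete the 5 with the widest spread (SD between lines 1.10 and 1.06).

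The smallest spreads belonged to H4C7 (SD between lines 0.15, from 3.26 to 3.75), H2BC13, H2AC1, H2BC26 and H2BC1, at 0.35 or less. H2AC1 and H2BC1 are the testis-type H2A and H2B genes, and their line means stayed between 3.83 and 5.11 and between 2.74 and 3.89. H4C7 varied less between lines than between the arrays of a group (SD 0.28). No detection calls were used, so it cannot be told whether such low probe sets lay above background.

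**Figure D1:**
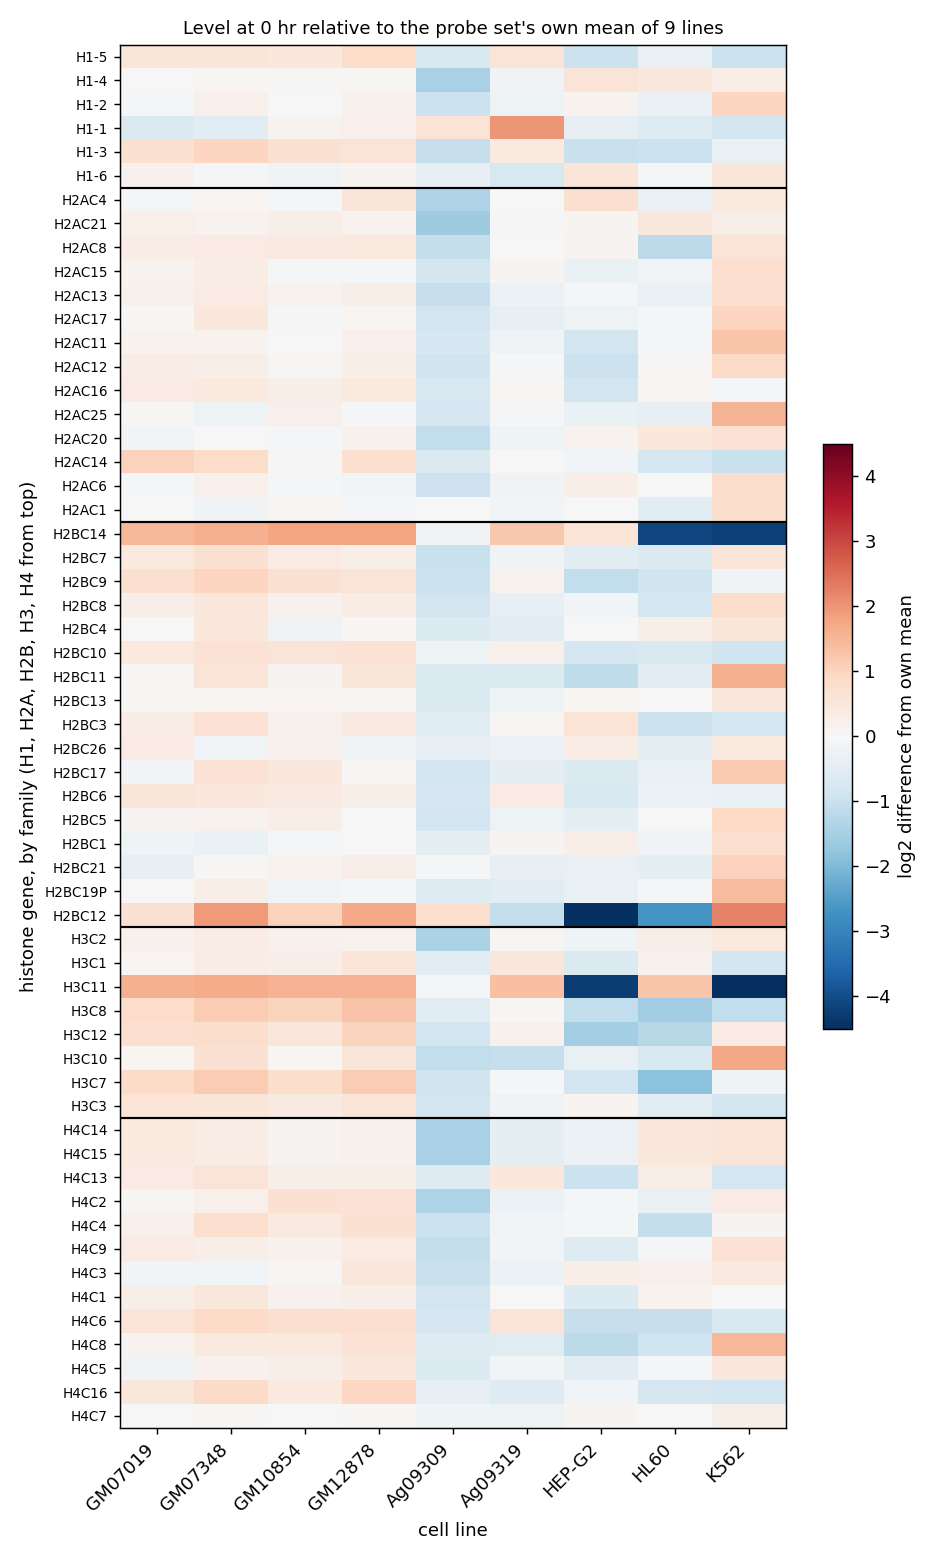
Level of each of the 58 members (rows, by family) at 0 hr in each line (columns), as the log2 difference from that probe set's own mean over the 9 lines, each cell a mean of 2 arrays. H3C11 is blue in HEP-G2 and K562, H2BC14 in HL60 and K562 and H2BC12 in HEP-G2 and HL60, while most rows are pale.

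Levels were also compared between lines of like origin, in fits whose error is the spread between arrays. Between the leukaemia lines 4 members were higher in HL60 and 31 in K562, where 10.6% and 13% of all probe sets passed in these directions (23.6% together). The extremes were H3C11 (5.92 ± 0.21 higher in HL60) and H2BC12 (a difference of -4.89 ± 0.30). H1-5, H3C1 and H4C13 were the other 3 that were higher in HL60, by 0.65 ± 0.18, 1.07 ± 0.24 and 1.05 ± 0.18. Among those higher in K562 were H3C10 (-2.43 ± 0.22), H4C8 (-2.39 ± 0.19) and H2BC11 (-2.07 ± 0.22).

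Between the fibroblast lines 32 members were lower in Ag09309 than in Ag09319 at 0 hr and 1 was higher, with 4.13% and 3.57% of all probe sets passing. The members with the widest gaps were H2AC21 (-1.50 ± 0.19), H3C2 (-1.48 ± 0.22) and H1-3 (-1.47 ± 0.17), and H2BC12 was the one that was higher (1.81 ± 0.30). The 0 hr arrays of Ag09309 are those with B cell marker signal, whose part in this result was not tested. The 2 lines also differ in title style, which cannot be told apart from the line. The count of 33 was 21 without Ag09309 0 hr replicate 2 or without Ag09319 0 hr replicate 1.

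Averaged over the 9 lines, 0 of 58 members passed at 36 hr against 0 hr, where 0.468% of all probe sets did (limma, lines as replicates). The members leaned downwards: 55 of the 58 differences were below 0, the median was -0.25 against 0.01 over all probe sets, and 36 members had an unadjusted p under 0.05, as did 13.9% of all probe sets. The differences ran from -0.65 to 0.15, and their 95% confidence intervals from -1.05 to 0.56. The lowest were H3C2 (-0.65 ± 0.18, adjusted p = 0.127), H2BC14 (-0.60 ± 0.22), H2BC7 (-0.56 ± 0.16), H2AC4 (-0.56 ± 0.17), H2BC9 (-0.53 ± 0.13, adjusted p = 0.0821) and H1-5 (-0.52 ± 0.16). At the other end were H2BC12 (0.15 ± 0.20), H2AC1 (0.05 ± 0.06) and H2BC19P (0.00 ± 0.14), none of which passed. Without GM07019 the H2A gene H2AC17 passed as lower, and the other 57 did not.

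At 8 hr over the 9 lines 0 members passed, 0% of all probe sets did, and 5 members had an unadjusted p under 0.05 (2.79% of all probe sets). The lowest differences were H2BC9 (-0.33 ± 0.13), H2AC17 and H2BC4 (both -0.28) and H4C8 (-0.27 ± 0.10), and the highest was H2BC1 (0.08 ± 0.09). From 8 to 36 hr 0 members passed where 0.37% of all probe sets did, and 17 had an unadjusted p under 0.05 (19.6% of all probe sets). There H2BC14 had the lowest value (-0.52 ± 0.22), followed by H1-5 (-0.48 ± 0.16), and H2BC12 the highest (0.32 ± 0.20). These comparisons share arrays with the first, so their values are not independent of it.

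The 9-line mean covered unlike lines. Median changes of the 58 members at 36 hr were 0.05 in GM07019, -0.04 in GM10854, -0.09 in GM12878, -0.12 in HL60, -0.19 in GM07348, -0.24 in K562, -0.29 in Ag09309, -0.38 in HEP-G2 and -1.15 in Ag09319. The median over all probe sets was between -0.03 and 0.03 in 8 of these lines and 0.13 in K562.

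**Figure D2:**
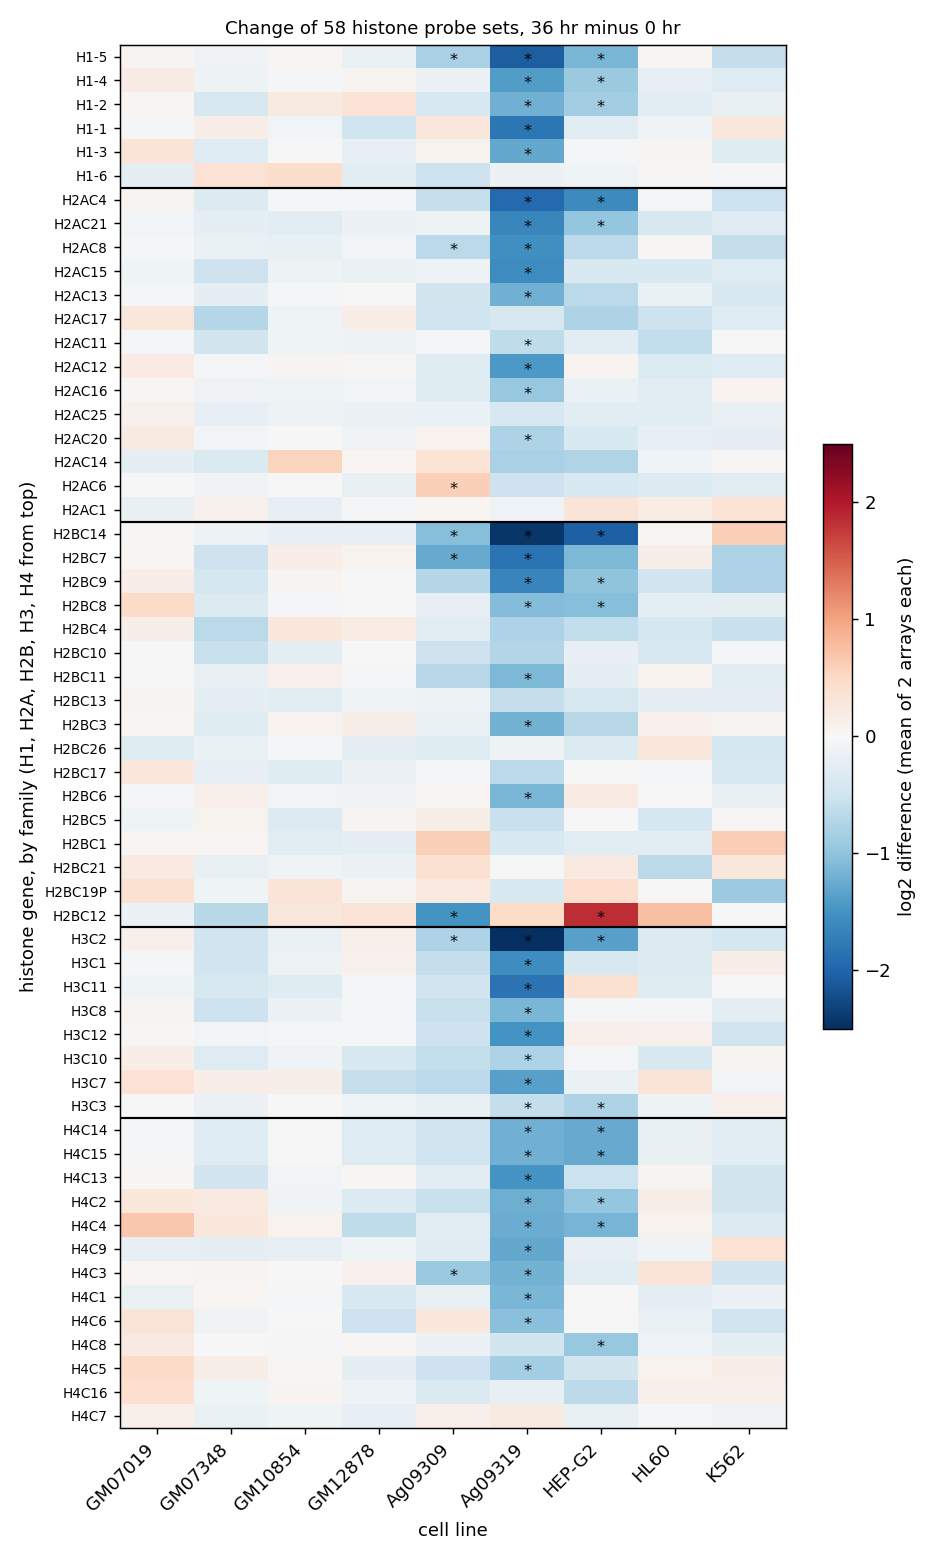
Log2 difference between 36 hr and 0 hr for each of the 58 members (rows, by family) in each line (columns), from means of 2 arrays; a star marks an adjusted p under 0.05 within that line. Blue cells with stars fill the Ag09319 column (39), 15 are in HEP-G2 and 7 in Ag09309, and the red cell with a star in HEP-G2 is H2BC12.

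Ag09319 fibroblasts held the widest response. At 36 hr 39 of the 58 members fell and 0 rose against 0 hr, while 2.71% of all probe sets fell (1.78% rose, 4.49% together). By family 5 of 6 H1, 9 of 14 H2A, 7 of 17 H2B, 8 of 8 H3 and 10 of 13 H4 genes fell, with median differences of -1.34, -0.88, -0.73, -1.43 and -1.18. In 49 members both 36 hr arrays lay below both 0 hr arrays, and in 0 members above. The share of all probe sets that did so was not counted, so no more is read from the 49.

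Core histone genes led these falls. H3C2 read 9.28 and 8.87 at 0 hr, 8.39 and 8.57 at 8 hr and 6.51 and 6.67 at 36 hr. The 36 hr arrays were far below the rest, a change of -2.48 ± 0.22 (adjusted p = 7.97e-10). H2BC14 went from 10.60 and 10.39 at 0 hr to 7.74 and 8.37 (-2.44 ± 0.23), and H2AC4 from 7.38 and 7.26 at 0 hr to 5.31 and 5.45 (-1.94 ± 0.23). In each the 8 hr arrays lay between those of 0 and 36 hr, without overlap. H3C11, which lay below the array medians in K562 and HEP-G2, went from 10.45 and 10.30 to 8.30 and 8.76 (-1.84 ± 0.21), and H2BC7 changed by -1.85 ± 0.34.

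Among the linker histone genes H1-5 read 9.80 and 9.56 at 0 hr, 9.21 and 9.04 at 8 hr and 7.48 and 7.77 at 36 hr, a change of -2.06 ± 0.18. H1-1 fell by 1.80 (SE 0.19), from 7.73 and 7.46 to 5.49 and 6.09. H1-4 (-1.39 ± 0.16), H1-3 (-1.29 ± 0.17) and H1-2 (-1.19 ± 0.19) followed. All 3 had both 36 hr arrays below both 0 hr arrays. H1-6, the testis H1, read 2.73 and 3.16 at 0 hr and 2.66 and 2.93 at 36 hr, and did not pass (-0.15 ± 0.25, adjusted p = 0.941).

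The other members that fell ran from H2BC9 (-1.65 ± 0.26), H2AC21 (-1.64 ± 0.19) and H2AC15 (-1.58 ± 0.20) to H2AC11 (-0.64 ± 0.19) and H3C3 (-0.59 ± 0.16). The H4 genes that fell lay between -1.48 (H4C13) and -0.86 (H4C5). The 19 that did not pass were H1-6, 5 H2A, 10 H2B and 3 H4 genes. H2BC12 was among them, at 7.28 and 6.82 at 0 hr and 7.26 and 7.75 at 36 hr (0.45 ± 0.30, adjusted p = 0.628). H2BC4, H2BC5 and H2BC21 did not pass either. By the members' own probe sets, only H4C15 of the 5 with a long annotated gene fell, with the values of H4C14. Probe sets shared between genes differed from this (limma over all probe sets). Those naming H2BC21 with H2BC19P and H2BC20P (-1.08 ± 0.13) and H2BC12 and H2BC5 with H2BC12L and H2BC17 (-1.43 ± 0.15) fell. Those naming H2BC21 with H2BC18 and H2BP1 (-0.02 ± 0.21) and H4C15 with H4C14 (0.06 ± 0.22) did not pass. Shared signal cannot be split between genes. Of the 43 members with a mean of at least 5 there fell 35, and of the 15 dimmer ones 4.

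By position 22 of 31 genes of the first block on chromosome 6 (25726063 to 26285534), 13 of 18 of the second (27132316 to 27893891) and 4 of 9 on chromosomes 1 and 12 fell. Leaving out 1 of the 4 arrays gave 32 to 36 falls, and 29 of the 39 members kept their call in every alternative that used all lines. With the 6 arrays of Ag09319 alone 0 passed (lowest adjusted p = 0.0822). When the 8 hr array that stood apart was left out of that fit, an alternative chosen after seeing the data, 36 of the 39 passed.

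The change came mainly after 8 hr. At 8 hr 0 members passed in Ag09319 (0.324% of all probe sets), although 47 of 58 differences were below 0, the median was -0.35 and 23 had an unadjusted p under 0.05, as did 26.8% of all probe sets. Without 8 hr replicate 1, which leaves the array that stood apart alone at that time, 12 members passed as lower and 1 as higher. From 8 to 36 hr 36 members fell and 1 rose, where 7.26% and 10.8% of all probe sets did. The steepest were H2BC14 (-1.91 ± 0.23), H3C2 (-1.88 ± 0.22) and H2AC4 (-1.57 ± 0.23). The riser was H2BC12 (1.06 ± 0.30), whose 8 hr arrays, 6.94 and 5.94, differed by more than most. With the line's arrays alone 0 passed, and 20 without the array that stood apart.

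**Figure D3:**
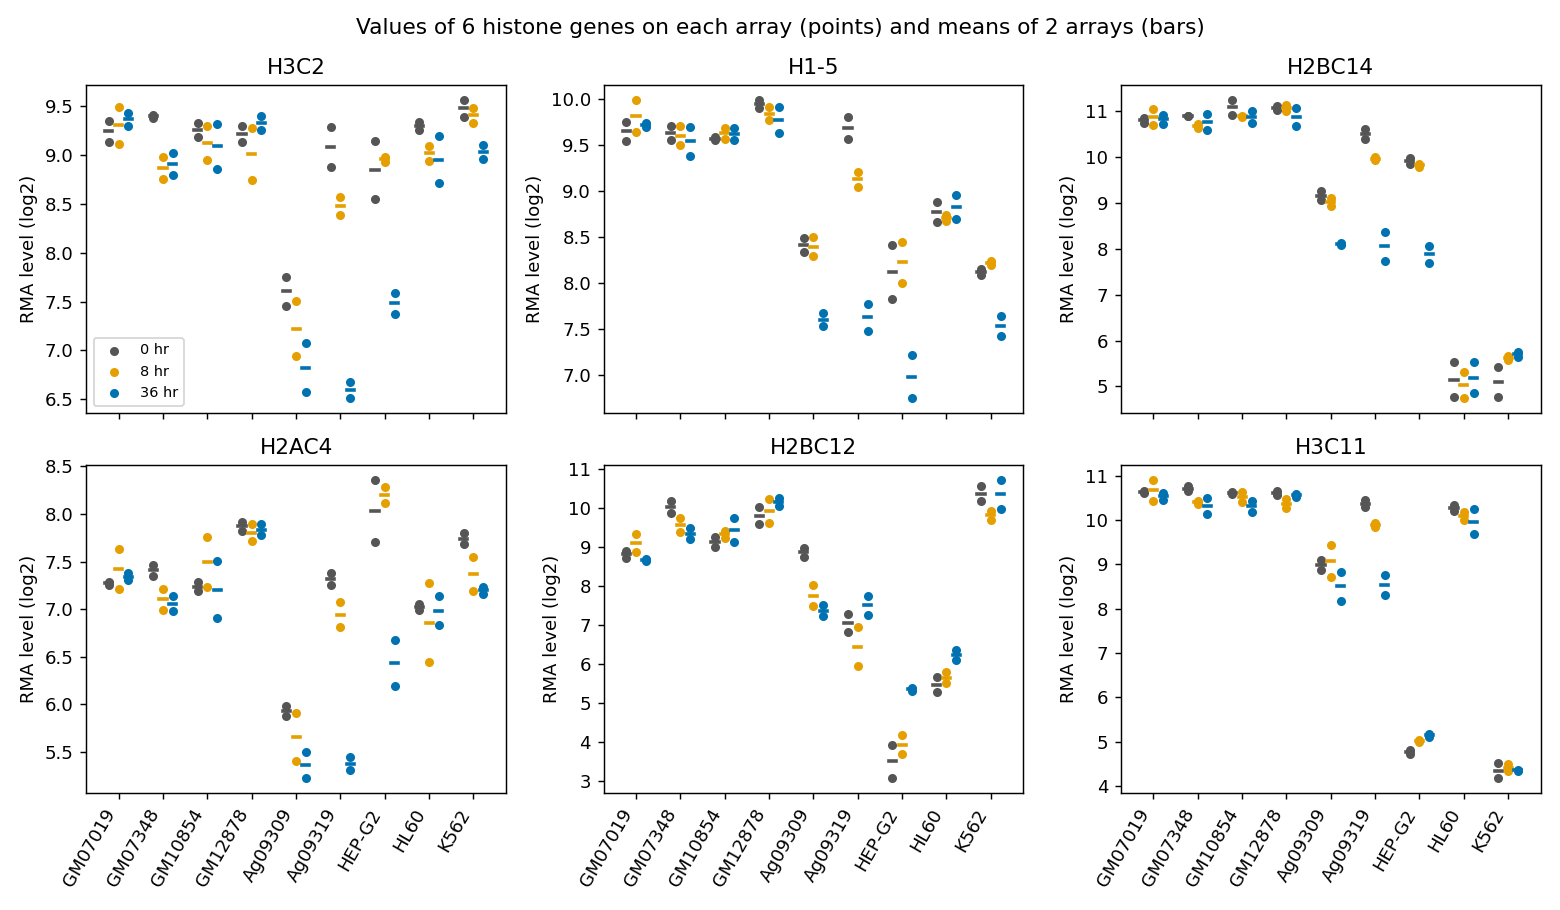
RMA log2 values of 6 members on every array (points; bars are means of 2 arrays) at 0, 8 and 36 hr in each line; each panel has its own axis, which does not start at 0. H3C2, H1-5, H2BC14 and H2AC4 drop at 36 hr in Ag09319 and HEP-G2, H2BC12 rises in HEP-G2, and H3C11 is low at every time in HEP-G2 and K562.

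In HEP-G2, 15 members fell and 1 rose at 36 hr against 0 hr, with 0.797% and 1.05% of all probe sets passing in these directions. H2BC14 went from 9.97 and 9.85 at 0 hr and 9.79 and 9.85 at 8 hr to 8.06 and 7.70 at 36 hr (-2.04 ± 0.23, adjusted p = 7.26e-07). H2AC4 went from 8.36 and 7.70 to 6.68 and 6.19 (-1.60 ± 0.23), and H3C2 from 9.14 and 8.55 to 7.59 and 7.37 (-1.37 ± 0.22). In all 3 the 36 hr arrays lay below every earlier array.

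The H1 genes that fell were H1-5 (8.41 and 7.82 to 7.21 and 6.75, -1.14 ± 0.18), H1-4 (-0.94 ± 0.16) and H1-2 (-0.87 ± 0.19). H1-1 (-0.26 ± 0.19), H1-3 (-0.05 ± 0.17) and H1-6 (-0.11 ± 0.25) did not pass. Of the H4 genes H4C14 and H4C15, 1 measurement, changed by -1.26 ± 0.20, H4C4 by -1.16 ± 0.27, H4C2 by -0.97 ± 0.19 and H4C8 by -0.94 ± 0.19. H2BC8, H2BC9, H2AC21 and H3C3 fell as well, by 1.06, 1.01, 0.97 and 0.77. Probe sets outside the members that name H4C15 and H4C14 together did not fall. They changed by 0.75 ± 0.22 in HEP-G2 without passing (adjusted p = 0.1004, limma over all 33297 probe sets). In Ag09319 they changed by 0.06 ± 0.22 at 36 hr against 0 hr.

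H2BC12 rose. It read 3.94 and 3.07 at 0 hr, 3.69 and 4.18 at 8 hr and 5.39 and 5.30 at 36 hr, a change of 1.84 ± 0.30 (adjusted p = 0.000203). The 36 hr arrays were above all 4 earlier ones, and the starting level was below the array medians. In HL60 the same gene went from 5.27 and 5.67 to 6.10 and 6.35 without passing (0.75 ± 0.30, adjusted p = 0.423). A probe set outside the members names H2BC12 together with H2BC12L, H2BC17 and H2BC5, and its signal cannot be split between them. It fell at 36 hr against 0 hr in HEP-G2 (-0.83 ± 0.15, adjusted p = 0.0024, limma over all 33297 probe sets). In Ag09319 it fell as well (-1.43 ± 0.15).

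At 8 hr 0 members passed in HEP-G2 (0% of all probe sets), the median was -0.02, and 3 had an unadjusted p under 0.05 (2.47% of all probe sets). From 8 to 36 hr 17 fell and H2BC12 rose (1.41 ± 0.30), where 0.894% and 0.761% of all probe sets did (1.65% together). H4C5 (-0.99 ± 0.17), H2AC8 (-0.85 ± 0.18), H2BC3 (-0.82 ± 0.22) and H2AC20 (-0.58 ± 0.15) passed in this comparison and not against 0 hr, while H2BC9 and H4C8 passed only against 0 hr. The difference between these comparisons was not tested. These 18 calls, H2BC12 included, were 11 without 8 hr replicate 2 and 7 without 36 hr replicate 2, and the call of H2BC12 was kept only in the first of these.

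One 0 hr array of HEP-G2 stood apart from its line. Against 0 hr, 23 members fell and 1 rose without the 3 arrays that stood apart, and 8 fell and 1 rose without 36 hr replicate 2. With the arrays of HEP-G2 alone 1 fell and 1 rose, and 17 fell and 1 rose when the array that stood apart was left out as well. H1-4, H1-5, H2AC4, H2BC14, H3C2 and the H4C14 and H4C15 pair fell, and H2BC12 rose, in every alternative that used all lines.

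In Ag09309, 7 members fell and 1 rose at 36 hr against 0 hr, with 2.26% and 2.65% of all probe sets passing (4.91% together). H2BC12 fell here, from 8.98 and 8.74 at 0 hr to 7.48 and 8.02 at 8 hr and 7.51 and 7.23 at 36 hr (-1.49 ± 0.30, adjusted p = 0.00104). The others that fell were H2BC7 (-1.26 ± 0.34), H2BC14 (9.25 and 9.05 to 8.12 and 8.07, -1.06 ± 0.23), H4C3 (-0.92 ± 0.17), H1-5 (-0.81 ± 0.18), H3C2 (-0.78 ± 0.22) and H2AC8 (-0.67 ± 0.18). H2AC6, an H2A gene known to yield polyadenylated transcripts, rose from 7.40 and 7.19 to 7.66 and 8.11 (0.59 ± 0.17, adjusted p = 0.0316). Over the 58 members the median was -0.29.

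The 0 hr arrays used in that comparison carried the B cell markers, which went down with these members: MS4A1 changed by -5.13 ± 0.21 and CD79A by -1.30 ± 0.22. Their part in the result was not tested. The comparison of 36 with 8 hr uses none of the 0 hr arrays: there H1-5 fell (-0.79 ± 0.18, adjusted p = 0.0346), the other 57 did not pass (0.0874% of all probe sets fell, 0.38% in both directions), 43 differences were below 0 and the median was -0.19. At 8 hr against 0 hr H2BC12 (-1.10 ± 0.30) and H4C3 (-0.62 ± 0.17) fell and 0 rose, with 1.42% of all probe sets falling (1.53% in both directions).

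These counts rested on single arrays. The 8 calls at 36 hr against 0 hr were 2 without 0 hr replicate 1, 4 without 0 hr replicate 2 and 4 without 36 hr replicate 1. Only H2BC12 and H4C3 kept their call in every alternative that used all lines. The 2 calls at 8 hr became 0 without 0 hr replicate 1, 0 hr replicate 2 or 8 hr replicate 1 and 1 without 8 hr replicate 2, and the call of H1-5 from 8 to 36 hr was lost without 8 hr replicate 1, 8 hr replicate 2 or 36 hr replicate 1.

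The difference between the fibroblast lines was tested directly. Their sample titles are of different styles, and what goes with the style cannot be told apart from the line. The change at 36 hr was less negative or more positive in Ag09309 than in Ag09319 for 15 members and more negative for 1, with 1.11% and 1.23% of all probe sets passing in these directions (2.34% together). H1-1 differed most (2.08 ± 0.26, adjusted p = 1.02e-06): it read 6.19 and 6.27 at 0 hr and 6.49 and 6.53 at 36 hr in Ag09309, while it fell in Ag09319. H3C2 (1.70 ± 0.30), H2AC21 (1.51 ± 0.26), H2AC15 (1.45 ± 0.29), H2BC14 (1.38 ± 0.33), H1-3 (1.38 ± 0.25) and H1-5 (1.25 ± 0.26) were among the 15, and H2BC12 was the exception (-1.94 ± 0.42). The test uses the 0 hr arrays of Ag09309 with their B cell markers, and the same 0 hr arrays gave the lower starting levels in that line. The count of 16 was 10 without Ag09309 36 hr replicate 2.

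Calls were set side by side between lines. Of the 15 members that fell in HEP-G2, 14 (93.3%) also fell in Ag09319, which is 35.9% of the 39 there; the exception was H4C8. Of all 58 members 67.2% fell in Ag09319, and of the 155 probe sets of any gene that fell in HEP-G2, 73.5% also fell in Ag09319, and no more than that is read from the shared count. Of the 7 that fell in Ag09309, 6 (85.7%) fell in Ag09319 and 3 (42.9%) in HEP-G2, while 18% and 7.74% of all 439 probe sets that fell in Ag09309 did so. Of all 58 members 67.2% fell in Ag09319 and 25.9% in HEP-G2, so no sharing beyond that is read from these few members either. The 3 common to all were H1-5, H2BC14 and H3C2, and 41 members fell in at least 1 of the 3 lines. The lines share no arrays, but single-line tests share 1 estimate of the spread.

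In the 4 lymphoblastoid lines 0 members passed in any comparison of times, in single lines or in their mean. On simulated data the single-line fit, run for Ag09319, called 0% of log2 changes of 0.5. The count of 0 in single lines therefore does not exclude changes of that size. At 36 hr against 0 hr 1.14% of all probe sets passed in the mean, and for members the differences ran from -0.23 to 0.16 with 95% confidence intervals between -0.41 and 0.43, and 6 had an unadjusted p under 0.05 (14.7% of all probe sets). H2AC15 was lowest (-0.23 ± 0.09, adjusted p = 0.26), then H3C11 (-0.21 ± 0.09) and H2BC10 (-0.20 ± 0.10), and H2BC19P highest (0.16 ± 0.10). H3C2 read 9.12 to 9.41 on the 8 arrays at 0 hr and 8.79 to 9.43 on the 8 at 36 hr, and H1-5 9.54 to 9.98 and 9.38 to 9.91, so that the times overlap in both.

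At 8 hr 2 members of the lymphoblastoid mean had an unadjusted p under 0.05, as did 3.17% of all probe sets (0.0257% passed). The lowest value there was that of H3C7 (-0.22 ± 0.13). From 8 to 36 hr there were also 2 such members, against 7.97% of all probe sets (0.283% passed). There H2BC1 was lowest (-0.25 ± 0.09) and H4C4 highest (0.26 ± 0.16). In single lines at 36 hr GM07019 had 3 members with an unadjusted p under 0.05 (3.11% of all probe sets). GM07348 had 10 (5.2%), GM10854 had 0 (7.87%) and GM12878 had 4 (2.74%). After adjustment 0.0514%, 0.118%, 0.0668% and 0.0514% of all probe sets passed in these lines. In their other comparisons of times at most 0.0257% of all probe sets passed, with 0.00514% at 8 hr and 0.0206% from 8 to 36 hr in GM07348 and 0.00514% from 8 to 36 hr in GM10854. The extremes were H4C4 in GM07019 (0.67 ± 0.27) and H2AC17 in GM07348 (-0.70 ± 0.27), which did not pass.

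In the leukaemia lines 0 members passed at 36 hr either, with 0.868% of all probe sets passing in HL60 and 0.0411% in K562. Unadjusted p was under 0.05 for 5 members in HL60 and 16 in K562, against 7.23% and 8.18% of all probe sets. At 8 hr against 0 hr and at 36 hr against 8 hr 0 members passed in these lines (0.236% and 0.2% of all probe sets in HL60, 0% and 0.139% in K562). The lowest values were H2BC21 in HL60 (-0.66 ± 0.23, adjusted p = 0.275) and H2BC19P in K562 (-0.91 ± 0.35, adjusted p = 0.442). H1-5 in K562 read 8.16 and 8.08 at 0 hr and 7.42 and 7.64 at 36 hr (-0.59 ± 0.18), without overlap and without passing. In HL60 it went from 8.66 and 8.87 to 8.69 and 8.96. Without K562 36 hr replicate 2, which leaves the array that stood apart alone at 36 hr, 3 members passed as higher in K562, and without the 3 arrays that stood apart H2BC21 passed as lower in HL60.

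Differences in change between groups of lines did not pass. Between lymphoblastoid and other lines at 36 hr 0 of 58 members passed (0.0103% of all probe sets), 19 had an unadjusted p under 0.05 (7.35% of all probe sets) and the median difference was 0.33. H3C2 had the highest value (0.98 ± 0.34, adjusted p = 0.654). Over the 58 members the lowest and the highest 95% confidence limits were -1.36 and 1.87. At 8 hr 0 members and 0% of all probe sets passed, and 1 member had an unadjusted p under 0.05 (3.93% of all probe sets). HL60 against the lymphoblastoid mean and HL60 against K562 gave 0 members each (0.457% and 0.185% of all probe sets), with 3 and 9 at an unadjusted p under 0.05 (5.36% and 7.19% of all probe sets). Without K562 36 hr replicate 2 the latter count was 2.

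**Figure D4:**
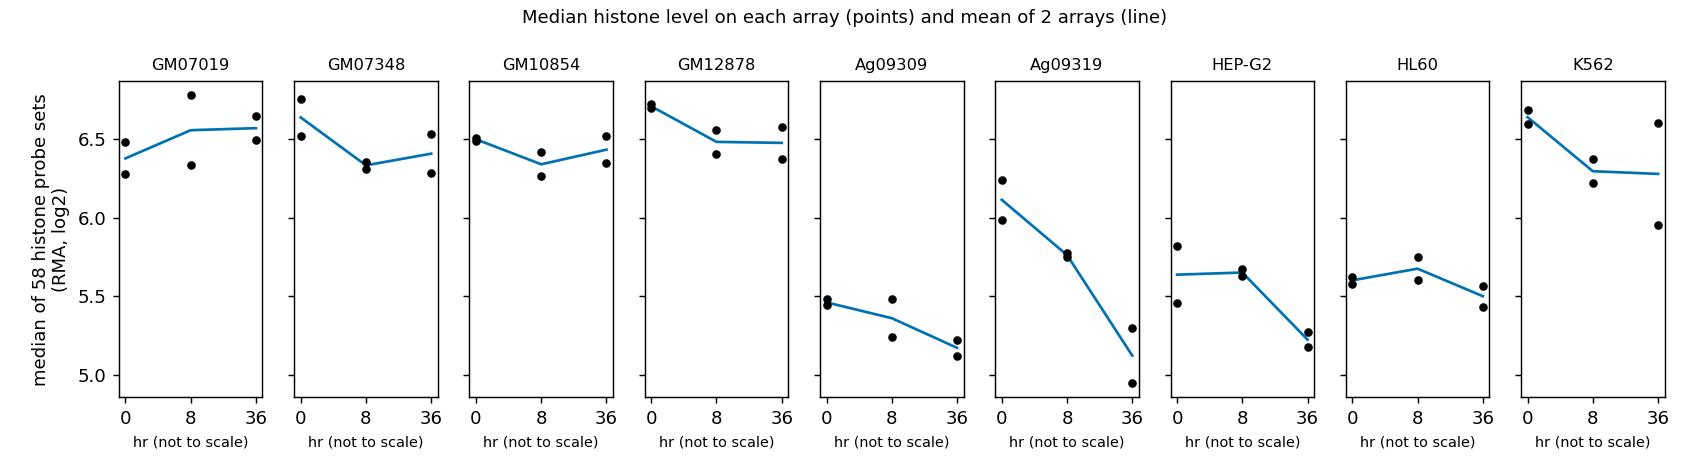
Median RMA log2 level of the 58 members on each array (points) and mean of the 2 arrays (line) at 0, 8 and 36 hr in each line; the vertical axis does not start at 0. In Ag09319 the median goes from 6.24 and 5.99 at 0 hr to 4.95 and 5.30 at 36 hr, while in the lymphoblastoid lines all arrays stay between 6.26 and 6.78.

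Genes of the same pathway were followed from lists. Of 25 probe sets for DNA replication, the helicase, polymerase and nucleotide enzymes of S phase, 25 fell in Ag09319 at 36 hr, 15 in HEP-G2, 10 in Ag09309 and 0 in each of the other 6 lines, and 0 rose in any line. Of all probe sets 2.71%, 0.797% and 2.26% fell in Ag09319, HEP-G2 and Ag09309, which is the base for this and the later lists. The median changes of the 25 replication probe sets were -1.34, -0.74 and -0.52 in these 3 lines and between -0.18 and 0.16 in the others. PCNA, the sliding clamp of DNA polymerase, changed by -1.41 ± 0.21 in Ag09319 and -0.75 ± 0.21 in Ag09309, where it fell, and by -0.57 ± 0.21 in HEP-G2, where it did not pass. In Ag09319 CDC6, which loads the helicase, changed by -2.13 ± 0.28, and its subunits MCM3 and MCM4 by -1.84 ± 0.18 and -1.72 ± 0.19.

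Across the 9 lines the median change of the 58 histone probe sets and that of the 25 replication probe sets had a Pearson r of 0.936 and a Spearman rho of 0.9. Without Ag09319 these were 0.85 and 0.857 (n = 8), and without Ag09319 and HEP-G2, which lay farthest from the middle in the replication list, 0.746 and 0.786 (n = 7). The 2 medians of a line come from the same arrays, so this is a description. In bulk RNA, fewer cells in S phase and less of these mRNAs per cell cannot be told apart.

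**Figure D5:**
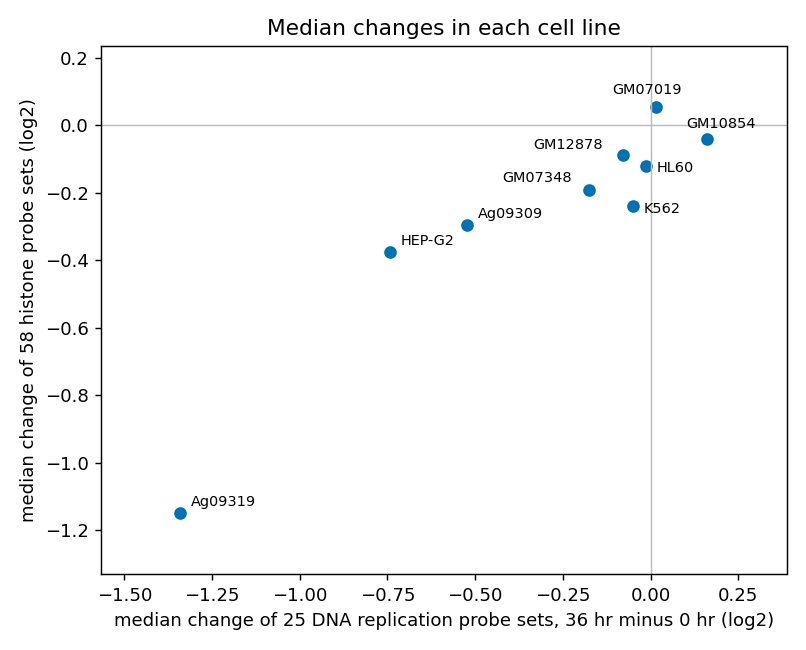
Median log2 change at 36 hr of the 58 histone probe sets (vertical) against that of the 25 DNA replication probe sets (horizontal), 1 point a line. Ag09319 lies at -1.15 and -1.34, HEP-G2 and Ag09309 are next, and the other 6 lines are near 0 on the horizontal axis.

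Of 21 probe sets for the making of histone mRNA, 5 fell in Ag09319 (CCNE2, CCNE1 and CDK2 of the kinase that acts on NPAT, its activator CDC25A, and E2F1), CDC25A also fell in HEP-G2 and Ag09309, and 0 rose in any line. CCNE2 changed by -2.16 ± 0.30 and the S phase transcription factor E2F1 by -0.57 ± 0.16. The factors dedicated to histone genes did not pass. SLBP read 7.64 and 7.66 at 0 hr and 7.16 and 7.29 at 36 hr in Ag09319 (-0.43 ± 0.17, adjusted p = 0.211), and changed by -0.55 ± 0.17 in HEP-G2 and -0.54 ± 0.17 in Ag09309. NPAT changed by -0.32 ± 0.25 in Ag09319. CASP8AP2, a histone locus body protein (-0.43 ± 0.24), HINFP, the activator of H4 genes (0.07 ± 0.18), and LSM11, of the U7 particle that cuts the mRNA end (-0.30 ± 0.15), gave no call there either.

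Of 21 probe sets for histone chaperones 6 genes fell in Ag09319, NASP in HEP-G2 and 0 in Ag09309. ASF1B, which hands H3 and H4 to the assembly machinery, changed by -1.82 ± 0.19 in Ag09319, and CHAF1A, of the complex that places them on new DNA, by -1.18 ± 0.18. In HEP-G2 they were at -0.66 ± 0.19 (adjusted p = 0.0681) and -0.45 ± 0.18. MMS22L (-1.75 ± 0.32), NASP, SSRP1 and CHAF1B were the other 4 that fell in Ag09319.

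Of 12 probe sets listed as replication-independent histones 3 fell in Ag09319 (H2AX, H2AZ1 and H2AZ2), 2 in HEP-G2 (H2AX and H2AZ2) and H2AZ1 in Ag09309. In these lines 0 rose. H2AX and H3-4 are on this list, and how far each listed gene is independent of S phase was not tested. H2AZ1 changed by -0.97 ± 0.17 in Ag09319 and -0.88 ± 0.17 in Ag09309. H3-3B, which encodes the replacement histone H3.3, was at -0.19 ± 0.20 in Ag09319, 0.14 ± 0.20 in HEP-G2 and -0.13 ± 0.20 in Ag09309. H2AJ, another replacement type gene, was at 0.20 ± 0.17, -0.07 ± 0.17 and 0.23 ± 0.17. Neither passed in these lines, and the median of the list was -0.19 in Ag09319 against -1.15 for the replication-dependent members.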

How the data were processed

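RNA of 54 cultures or aliquots of 9 established lines was prepared with an Exiqon kit, and 100 ng was hybridised to Affymetrix Gene 1.0 ST arrays, per the labels' protocols. The deposited values are log2 intensities that the authors obtained by RMA (Affymetrix Expression Console 1.0, per the submitters' processing notes); whether all arrays were normalized in 1 run is not given there. Arrays are not counts, so the number of arrays limits the precision. Groups came from the labels, which use 2 styles of title (6 and 3 lines). HEP-G2, Ag09319 and GM12878 have the second style. Titles of 1 line give GM18054 where the cell line field gives GM10854, and the field was used.

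Differences were fitted with limma 3.58.1 in R 4.3.3 over the 19460 probe sets with 1 symbol in the platform's probe-to-gene table, with Benjamini-Hochberg adjustment over all of them and a threshold of 0.05. Comparisons over lines averaged the 2 arrays of a group and used the line as the replicate; comparisons within a line came from 1 fit of 27 groups to 54 arrays. The scripts were tested on simulated data with 200 probe sets changed by known log2 amounts. The single-line fit, run for Ag09319, called 0% of changes of 0.5, 74.5% of changes of 1 and 100% of changes of 2. The 9-line fit called 60.5% of changes of 0.5 and 100% of changes of 1. A count of 0 in a single line therefore does not exclude changes of 0.5 or less. Members, gene lists and tests were chosen with earlier results of these data known. The naming rule covered members that passed, the largest changes in each comparison, all H1 members, the members with the widest and narrowest spread at 0 hr, a fixed set of pathway genes and, of each list, up to 4 genes that passed; levels were not ranked between probe sets, although the rule had provided for it. Positions (58 of 58 members matched) and promoters (52 of 58) are from RefSeq (GRCh38.p14). Alternatives covered quantile normalization, centring, filters, title style, left-out arrays or lines, single-line fits and a replicate block.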

Additional observations from a re-analysis of the deposited data

Results flagged for a closer look

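The median change of the 58 members at 36 hr set 1 line apart from the 9: Ag09319 at -1.15 lay at a distance of 0.642 of the whole range from its nearest neighbour, where the 95% critical value of Dixon's test is 0.493. Chance alone marks about 1 in 20 such groups. The same test was run on the changes of the single members named over the 9 lines at 36 hr, and it marked none. Their largest distance was 0.455 (H2BC21), with 0.433 for H1-5 and 0.429 for H3C2.

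The change at 36 hr differed between the fibroblast lines for 16 members, by limma's test of the difference itself (adjusted p under 0.05). Given as Ag09309 minus Ag09319 on the log2 scale, the linker histone genes differed by 2.079 (H1-1), 1.379 (H1-3), 1.251 (H1-5) and 1.247 (H1-4). The H2A genes differed by 1.51 (H2AC21), 1.449 (H2AC15), 1.367 (H2AC4), 1.101 (H2AC6) and 0.86 (H2AC20). Of the H2B genes, H2BC14 differed by 1.381 and H2BC6 by 1.191, and H2BC12 went the other way with -1.942. H3C2 differed by 1.704, H3C11 by 1.355, H4C6 by 1.316 and H4C13 by 1.221. The 0 hr arrays of Ag09309 carried B cell markers, whose part in these differences was not tested. The 2 lines also differ in title style, which cannot be told apart from the line.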

How the results depend on the processing

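Calls in Ag09319 and HEP-G2 at 36 hr against 0 hr kept their direction in every alternative run, while their number depended on which arrays gave the spread. With the arrays of a line alone, the counts of members passing were 0 in Ag09319 at 36 hr against 0 hr and 0 against 8 hr, 2 and 4 in HEP-G2, and 1 in Ag09309 at 8 hr. Without the 3 arrays that stood apart as well, a setting chosen after seeing the data, they were 20 in Ag09319 from 8 to 36 hr and 1 each at 8 hr in Ag09309, K562 and HEP-G2. In the fit of all lines, leaving out those 3 arrays gave 1 in HL60 at 36 hr against 0 hr and 3 in Ag09309 from 8 to 36 hr. Centring arrays on their medians gave 3 members for the lymphoblastoid level difference and 0 for Ag09309 at 8 hr and from 8 to 36 hr. Quantile normalization gave 2 in Ag09309 and 2 in K562 from 8 to 36 hr, and testing all probe sets of the table gave 0 in Ag09309 at 8 hr. The level difference had 4 members among lines of the first title style and 2 among those of the second.

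Arrays with the same replicate number were not treated as paired. Of 27 correlations of their deviations 14 were above 0.1 and 9 below -0.1, from -0.414 to 0.585. All those of K562 (0.51, 0.585 and 0.356), GM07348 (0.235, 0.269 and 0.343) and GM12878 (0.105, 0.229 and 0.308) were positive. In every other line the signs were mixed. With the replicate number as a replicate block, 16 members passed as lower over the 9 lines at 36 hr against 0 hr, 2 from 8 to 36 hr, and 2 in K562 from 8 to 36 hr. Over the 9 lines this run did not average the 2 arrays of a line but counted them as separate replicates. Its 16 and 2 therefore do not take the line as the replicate. Other counts stayed within 1.5 times.

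Leaving out 1 line gave 0 to 1 members over the 9 lines at 36 hr and 2 to 10 for the lymphoblastoid level difference. Leaving out 1 array gave 2 to 8 in Ag09309 at 36 hr against 0 hr, 0 to 1 at 8 hr and 0 to 1 from 8 to 36 hr, and 0 to 13 in Ag09319 at 8 hr. It gave 0 to 3 in K562 at 36 hr against 0 hr and 0 to 7 against 8 hr, and 9 to 21 and 7 to 13 in HEP-G2. For differences between lines it gave 0 to 2 (HL60 and K562, change), 10 to 19 (fibroblasts, change) and 21 to 30 (fibroblasts, level).

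Over the 9 lines at 36 hr the sign turned in at least 1 alternative for 11 of 58 members, none of which passed over all lines and arrays; 4 of these were among the 12 members named by rule there. H2BC1 was 0.123 and H2BC12 -0.216 with the first title style; without 1 line they ran from -0.10 to 0.025 and from -0.062 to 0.355. With the second title style H2BC12 was 0.881, against 0.15 over all lines. H2BC19P was -0.032 after quantile normalization, -0.01 without the 3 arrays and -0.015 with the first title style, and -0.049 to 0.115 without 1 line. H2BC21 was 0.00 after centring, 0.028 with the second title style and -0.048 to 0.081 without 1 line. The cause of these differences was not tested.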

Other observations

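Histone genes that share a probe set with others were left out of the members. Of 20 such probe sets, which hold 17 different rows of values, 14 fell and 0 rose in Ag09319 at 36 hr against 0 hr, with a median of -1.14 (limma over all probe sets of the table, adjusted p under 0.05). In HEP-G2 10 fell and 0 rose, with a median of -0.70. Their signal cannot be split between the genes named. In the fit of the 19460 probe sets with 1 symbol 2.71% fell in Ag09319 and 0.797% in HEP-G2.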
